A study of Drosophila melanogaster with 2 samples.

Results

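The genes described here are 9 of the annotated members of the KLF and SP family of Drosophila melanogaster, namely Klf15, the neighbours btd and Sp1, Spps, hkb, dar1, luna, CG42741 and CG3065, out of 13968 protein-coding genes. They were listed by family membership, with earlier results of these data known. The KLF gene cbt, which has an optimal peak at its start site, was left out of the list and is given only for comparison. The series asked where Bteb2, the protein made by Klf15, sits on chromatin in whole fly embryos. Its samples are 1 group of 2 libraries, biological replicates 1 and 3, from the strain Bteb2-GFP, a transgenic line that stably makes Bteb2 with eGFP at its C terminus. Embryos of mixed sex were collected at 4 to 20 h, the chromatin was sonicated to 200 to 800 bp, and an antibody to GFP was used for the precipitation. All tissues of the embryo were pooled, and the labels do not give the promoter that drives the fusion. No untagged or input sample was analysed here, so the data hold no contrast between conditions.

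KLF and SP proteins are transcription factors with a block of C2H2 zinc fingers near the C terminus, which reads GC boxes and CACCC boxes in promoters and enhancers. Members of the family bind closely related sequences, and in vertebrates several of them regulate the promoters of other members. In the fly the family covers very different tasks. Klf15 is needed for the differentiation of nephrocytes, the filtering cells of the haemolymph, while btd and hkb pattern the early embryo. Whether a tagged family member is found at the genes of its own family is the question that the peak lists can address.

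Both replicates and their pool each had a relaxed list of 30000 candidate peaks from the authors, 3 lists in all. From these they kept 3350 reproducible regions, called optimal peaks here. The signal of a peak is the authors' own value. It sets the rank within a list, where rank 1 is the strongest, and is not compared between lists. Pooled signals ran from 15.4 to 1369, and the lowest optimal signal was 65.9. The relaxed lists are labelled as peaks and background, so each holds background as well as peaks. The lower part of a relaxed list may be background, since its −log10 q-value went down to 0.180 in the pooled list. The lists carry no read totals, and the depth behind them is unknown. A gene was counted as having a peak at its transcription start site (TSS) when a summit was at most 1000 bp from one of its annotated TSSs.

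None of the 9 genes had an optimal summit at a TSS, where 20.4% of all protein-coding genes had one. Among the 3350 strongest peaks of replicate 1 the count was also 0 of 9, against 20.3% of all protein-coding genes, and among those of replicate 3 it was 0 of 9, against 20.2%. In the pooled relaxed list 7 of the 9 genes had a summit at a TSS, against 62.4% of all protein-coding genes, and Klf15 and Sp1 had none. The counts were 6 of 9 in replicate 1, against 62.7%, and 6 of 9 in replicate 3, against 62.4%. In all 3 relaxed lists together 5 of 9 had one (Spps, CG3065, dar1, btd and luna), against 53.6% of all protein-coding genes. With so few genes these shares are a description, and no test was made of them.

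**Figure D1:**
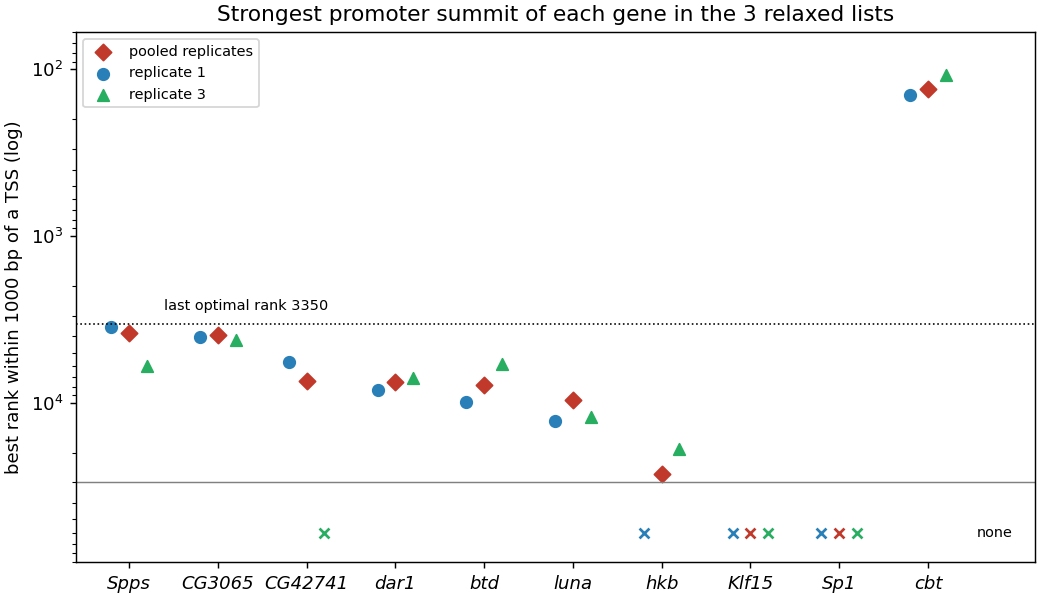
Best rank (log axis, strong peaks at the top) of any summit within 1000 bp of a TSS, for each gene in the pooled list and in each replicate's list. Crosses mark genes with no such summit. The dotted line is rank 3350, the last optimal peak; the 9 genes lie below it, and cbt, shown on the right, lies above it at ranks 131, 143 and 108.

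The order of the genes by this promoter rank in the pooled list had Spps and CG3065 at the top. Spps, which encodes an SP-type protein that acts at Polycomb response elements, had rank 3827 in the pooled list, 3531 in replicate 1 and 6022 in replicate 3. CG3065, for which no role is given here, had ranks 3925, 4017 and 4212 in the same order. Its pooled summit lay 205 bp from its own TSS and 27 bp from that of the neighbour CG10904. The ranks of Spps in the replicates span those of CG3065, so the order of these genes is within their spread. In replicate 3 btd, at rank 5873, also came before Spps.

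CG42741 came next with rank 7446 in the pooled list and 5720 in replicate 1, while replicate 3 had no summit there. The nerve cell factor gene dar1 had ranks 7486, 8430 and 7109, and the head gap gene btd had 7781, 9872 and 5873. These genes also could not be ordered beyond the spread of their replicates. Both replicates placed luna lower, at 12863 in replicate 1 and 12216 in replicate 3, with 9604 in the pooled list. The terminal gap gene hkb was last, with rank 26749 in the pooled list, 18992 in replicate 3 and no summit in replicate 1.

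These promoter summits were set against those of all protein-coding genes. Of all protein-coding genes, 22.6% had a pooled summit at a TSS at least as strong as that of Spps. The share was 23.0% for CG3065, 36.3% for CG42741, 36.4% for dar1, 37.2% for btd, 41.5% for luna and 60.3% for hkb. The median rank over the 8722 protein-coding genes with such a summit was 5960. In the pooled list Spps and CG3065 were stronger than this median, and the other family genes with a summit were weaker.

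**Figure D2:**
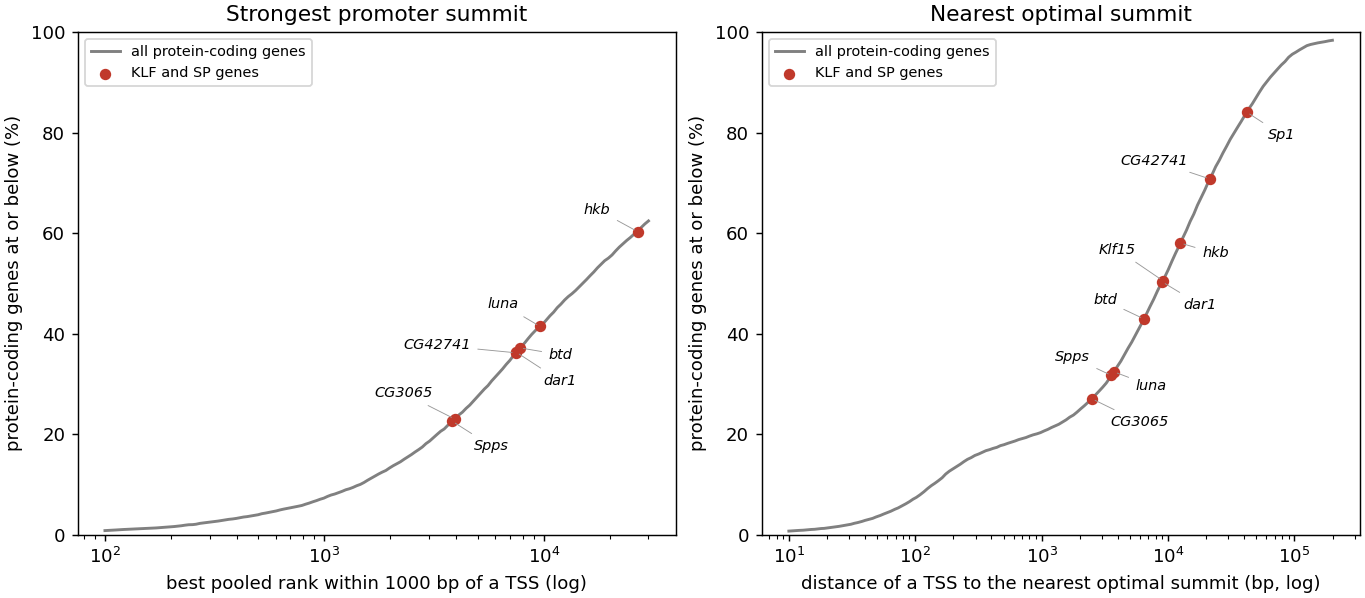
Cumulative share of all protein-coding genes (grey line) by the best pooled rank at a TSS (left, log axis) and by the distance of a TSS to the nearest optimal summit (right, log axis), with the KLF and SP genes as red points. Klf15 and Sp1 have no pooled summit at a TSS and are missing on the left. On the right the genes run from 2494 bp for CG3065 to 41911 bp for Sp1.

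Klf15, the gene whose product was tagged, had no summit in its body and none near its TSS in any of the lists. It is a short gene of 1032 bp on the minus strand of chromosome X (dm6 4770557 to 4771588) with 1 annotated transcript. Only 3 pooled summits lay within 20 kb, or 0.731 per 10 kb of the gene and its flanks, against a median of 2.98 over all protein-coding genes. Of all protein-coding genes, 12.3% had a density as low. All 3 lay downstream, in intergenic sequence, and none lay upstream. The nearest coding neighbour, CG15472, has its TSS 1451 bp away from that of Klf15.

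The optimal peak near Klf15 lay 9078 bp downstream of its TSS, from 4762302 to 4762717 on X. Its pooled signal was 89.1 at rank 2021, and it had rank 2162 in replicate 1 and 2145 in replicate 3. A weaker peak with its summit at 8874 bp adjoined it, at rank 4315 in the pooled list, 4419 in replicate 1 and 6063 in replicate 3. Both replicates thus placed the stronger summit of this pair among their 3350 strongest and the weaker one outside them. The third pooled summit, at 9845 bp, had rank 16498 and was matched in replicate 3 alone, at rank 6952.

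The 2 stretches printed here let the promoter of the tagged gene, which carried no peak, be read beside the reproducible peak downstream of it. The first is the 200 bases before the Klf15 TSS (chrX:4771589-4771788) and the second the 201 bases around the optimal summit (chrX:4762410-4762610). Both are given on the minus strand, the strand of the gene. Capitals in all sequences printed here mark a match, on either strand, to the sites searched for. The KLF/SP sites were the GC box GGGCGGG and its common variant GGGTGGG, together with GGGCGTG, a KLF form of the box, and its own variant GGGTGTG. The others were TATCGATA, the site of the promoter factor DREF, and GAGAGAG, a site of the GAGA factor. The sites of 1 kind may overlap each other. Neither stretch held any of them.
Klf15 upstream: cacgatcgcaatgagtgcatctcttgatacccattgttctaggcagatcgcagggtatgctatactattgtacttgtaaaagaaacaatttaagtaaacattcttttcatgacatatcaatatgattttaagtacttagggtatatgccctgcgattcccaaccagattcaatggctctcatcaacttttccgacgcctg
Klf15 optimal: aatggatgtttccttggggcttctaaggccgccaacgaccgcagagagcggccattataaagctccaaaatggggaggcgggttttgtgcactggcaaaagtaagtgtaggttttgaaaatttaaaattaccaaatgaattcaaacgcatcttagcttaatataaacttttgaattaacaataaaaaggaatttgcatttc

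The gene dar1 encodes a KLF protein that promotes the growth of dendrites in neurons, and it had the most optimal summits of the 9 genes. It spans 27091 bp on the plus strand of 3L (3626352 to 3653442). Of its 4 optimal summits within 20 kb, the only one inside the gene lay in an intron 12400 bp downstream of the TSS, from 3638544 to 3638959. This peak had signal 79.9 and rank 2444 in the pooled list, rank 2277 in replicate 1 and rank 3369 in replicate 3, just outside the 3350 strongest of replicate 3. The others lay 8967 bp upstream (rank 1880), 9767 bp upstream (rank 2065) and 39170 bp downstream of the TSS (rank 2730). Both upstream summits were nearer to the TSS of CG10357, at 2003 and 1203 bp, and the one at 9767 bp fell in the 3′ UTR of that gene.

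At the dar1 TSS itself the pooled list held a summit 59 bp upstream with signal 39.2, at rank 7486. Its window had a GC content of 60.2%, against a median of 38.8% over all pooled windows of 201 bp. The window of the intronic optimal summit had 31.8%, against a median of 35.3% over all optimal windows. The intronic window (chr3L:3638652-3638852, plus strand) is printed as the only reproducible peak inside one of the genes whose letters are shown, and it held none of the searched sites.
dar1 intron: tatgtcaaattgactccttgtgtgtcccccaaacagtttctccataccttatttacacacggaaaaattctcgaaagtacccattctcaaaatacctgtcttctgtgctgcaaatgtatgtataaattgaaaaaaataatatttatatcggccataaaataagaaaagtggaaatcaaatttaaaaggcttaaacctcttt

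Spps had the strongest promoter summit of the 9 genes in the pooled list and in replicate 1. In replicate 3 those of CG3065 and btd were stronger. Spps shared its promoter summit with a neighbour. The gene spans 3490 bp on the minus strand of 3R (24223445 to 24226934), and CG13609 starts 89 bp away in the opposite direction. The pooled peak, from 24226749 to 24227164, had its summit 23 bp upstream of the Spps TSS and 66 bp upstream of that of CG13609. Its signal of 60.5 lay under the lowest optimal signal of 65.9. The 3 protein-coding genes with promoter ranks most like those of Spps over the 3 relaxed lists, out of 7488 compared, were CG13609 itself (summed log10 difference 0), RpL6 (0.0369; ranks 4073, 3502 and 6110), which encodes a ribosomal protein, and CG13326 (0.0434; ranks 3585, 3417 and 6011).

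Stronger peaks lay on both sides of Spps at the promoters of other genes. The optimal peak 3567 bp upstream of the Spps TSS lay 61 bp upstream of mask, which encodes an ankyrin repeat protein. It had signal 173 and ranks 552 in the pooled list, 529 in replicate 1 and 665 in replicate 3. The optimal peak 4808 bp downstream lay in an intron of cav, which encodes a telomere capping protein, 116 bp upstream of the nearest cav TSS, with signal 90.9 and ranks 1946, 1941 and 1761. The 88 bases between the TSSs of Spps and CG13609 (chr3R:24226935-24227022, on the strand of Spps) are printed because the strongest promoter summit of the 9 genes in the pooled list fell in them. They held none of the searched sites.
Spps upstream: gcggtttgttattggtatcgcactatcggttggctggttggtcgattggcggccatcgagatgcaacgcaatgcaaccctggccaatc

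The genes btd and Sp1 are neighbours on X and act together in the growth of the legs and antennae, and btd also patterns the head segments. No summit of any relaxed list lay in the 32089 bp between them (9697559 to 9729647). Of all tiles of that length on the 6 arms other than Y, 14.6% also held no summit in any of the 3 lists, and 11.5% did on X. The optimal peaks near btd (9694186 to 9697558, plus strand) were both upstream. The stronger had signal 210 and ranks 360, 303 and 513 in the pooled list, replicate 1 and replicate 3, and lay 6449 bp from the btd TSS and 452 bp upstream of lncRNA:CR42657. The other, 8141 bp upstream of btd, had signal 108 and ranks 1425, 1629 and 1239. It lay in an intron of nej, which encodes the CBP histone acetyltransferase, 378 bp upstream of the nearest nej TSS.

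At the btd TSS the pooled summit lay 271 bp upstream, with signal 38.3 and rank 7781. Its window had a GC content of 57.7% and GAGA factor sites in 2 runs, while the window of the optimal peak 6449 bp upstream had a GC content of 28.9% and none of the searched sites. These windows of 201 bases are printed to show that contrast (chrX:9693815-9694015 and chrX:9687637-9687837, both on the plus strand). GAGAGAG occurred in 3.81% of all pooled windows of this length and in 3.64% of all optimal ones.
btd promoter summit: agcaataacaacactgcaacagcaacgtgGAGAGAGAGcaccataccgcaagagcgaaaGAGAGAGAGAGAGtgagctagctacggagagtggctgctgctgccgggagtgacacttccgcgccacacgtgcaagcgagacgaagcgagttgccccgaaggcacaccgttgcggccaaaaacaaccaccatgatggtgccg
btd optimal: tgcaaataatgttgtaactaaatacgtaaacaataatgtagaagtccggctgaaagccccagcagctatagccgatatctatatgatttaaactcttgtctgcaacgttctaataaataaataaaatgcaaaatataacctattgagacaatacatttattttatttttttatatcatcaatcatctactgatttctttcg

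Sp1 had the lowest density of pooled summits of the 9 genes. Its 26722 bp and 20 kb to either side held 2 pooled summits, at ranks 21711 and 24977, or 0.300 per 10 kb, a density as low as in 7.43% of all protein-coding genes. The first of them lay in an intron 8958 bp downstream of the TSS and was matched at rank 18623 in replicate 1 and not in replicate 3. The other was matched in neither replicate. The replicate lists themselves held 4 summits around Sp1 in replicate 1, with a best rank of 18623, and 2 in replicate 3, with a best rank of 17566. The nearest optimal summit was 41911 bp from the TSS, beyond btd, against a median distance of 8825 bp over all protein-coding genes. The 200 bases before the Sp1 TSS (chrX:9729448-9729647, plus strand) are shown as a promoter of the family without a peak in any list, and they held none of the searched sites.
Sp1 upstream: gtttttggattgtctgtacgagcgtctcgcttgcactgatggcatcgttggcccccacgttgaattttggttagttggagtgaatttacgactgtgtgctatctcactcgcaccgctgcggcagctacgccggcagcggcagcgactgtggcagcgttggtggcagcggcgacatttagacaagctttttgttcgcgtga

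The gene hkb encodes a repressor that marks the anterior and posterior ends of the early embryo. It is 1632 bp long, on the minus strand of 3R (4345015 to 4346646). Its pooled promoter summit, 357 bp upstream, had signal 16.8, near the bottom of the list at 15.4. Replicate 3 held 3 summits within 1000 bp of the hkb TSS, at ranks 18992, 19123 and 22007, and replicate 1 held none. The first pair of these lay in the coding exon, 520 and 316 bp downstream of the TSS. The optimal peak of the region lay 12529 bp downstream of hkb and 46 bp upstream of CG9776, with signal 123 and ranks 1120, 1015 and 1504 in the pooled list, replicate 1 and replicate 3. Its window held the DREF site TATCGATA, which occurred in 5.01% of all optimal windows.

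**Figure D3:**
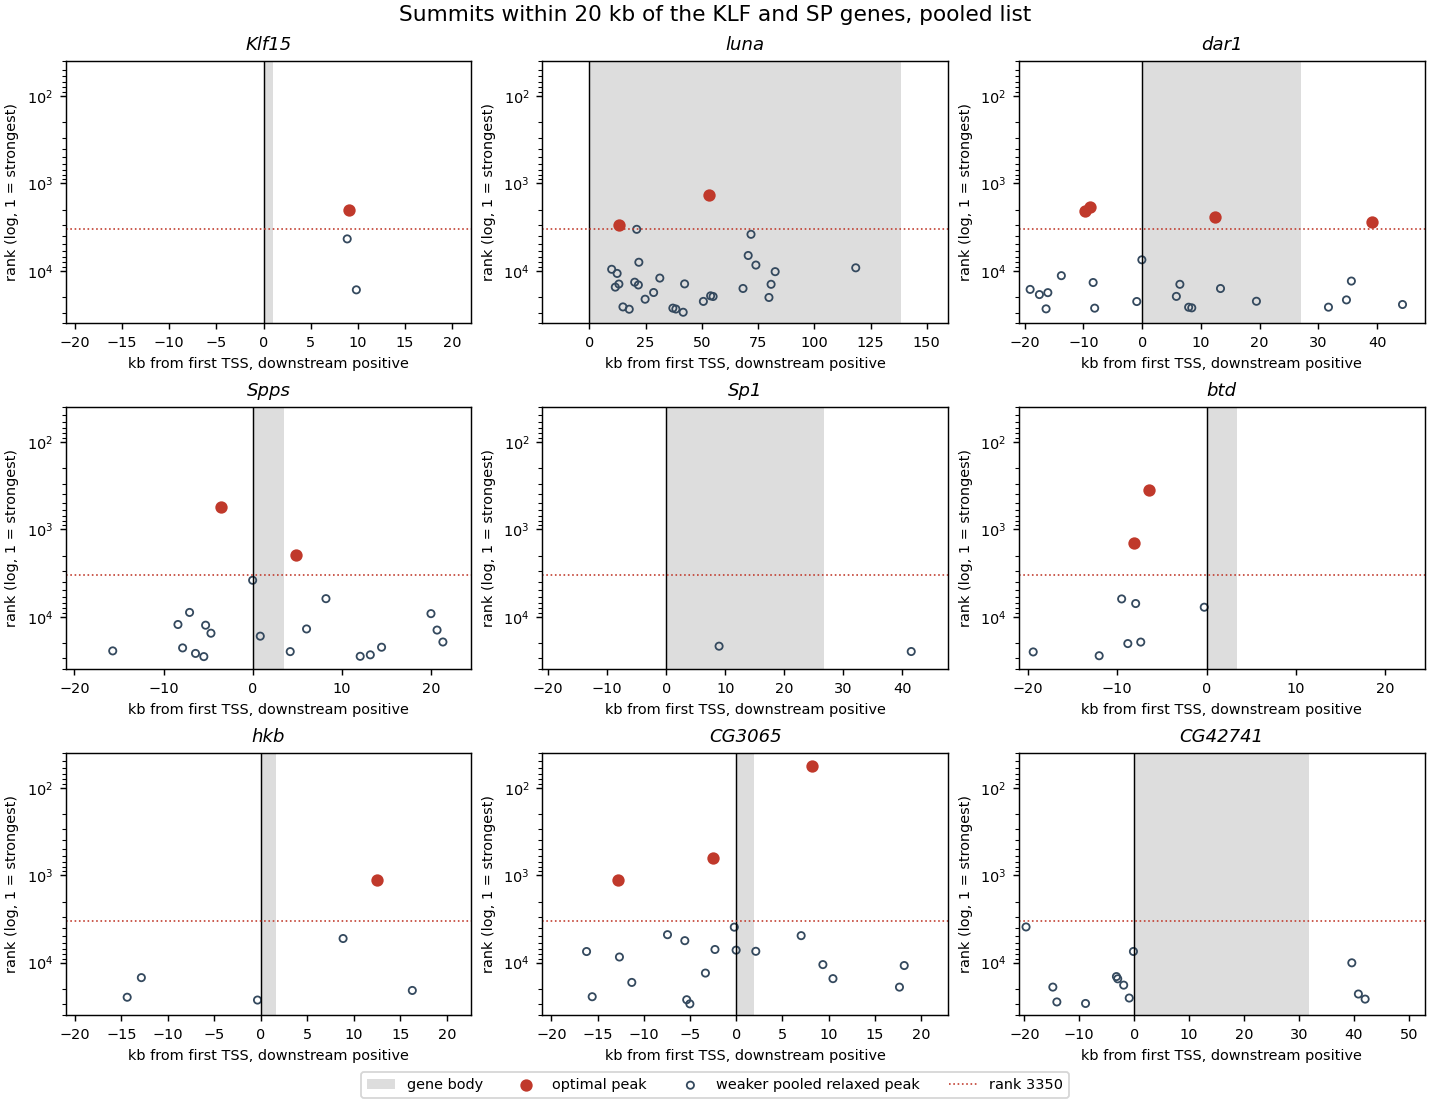
Pooled summits within 20 kb of each gene, by distance from its first TSS in kb, with the direction of transcription to the right, and by rank on a log axis with strong peaks at the top. Filled red points are optimal peaks, open points weaker relaxed peaks, the grey band is the gene and the dotted line rank 3350. Red points fall inside the gene for luna and dar1, and Sp1 has 2 weak points.

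Of the 9 genes luna was the longest, and all of its nearby summits in the pooled list lay inside it. It encodes a KLF protein and spans 138423 bp on the minus strand of 2R (10977956 to 11116378), with 3 transcripts from 2 TSSs. The pooled list held 30 summits, 29 of them intronic, and none in the 20 kb to either side. The replicate lists each had 1 weak summit outside it, upstream, at rank 29661 in replicate 1 and 24591 in replicate 3. Of these 30, 24 overlapped a peak of both replicates and 3 a peak of neither. Per length this was 1.68 per 10 kb, a density as low as in 25.0% of all protein-coding genes. Its optimal summits lay 43748 bp and 3730 bp downstream of the nearest luna TSS. The first had signal 111 and ranks 1368, 1213 and 1969 in the pooled list, replicate 1 and replicate 3. The second had signal 70.9 and ranks 2982, 4398 and 2974, so replicate 1 alone did not place it among its 3350 strongest. A further intronic summit 11451 bp downstream had pooled rank 3354 and signal 65.9, directly below the optimal set.

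Optimal summits inside the gene were thus found for 2 of the 9 genes, luna and dar1, against 9.61% of all protein-coding genes. In the pooled list 4 of the 9 had a summit inside (luna, dar1, Spps and Sp1), against 43.3%. Both luna and dar1 are longer than 20 kb, as are Sp1 and CG42741, which had none. Among the 1020 protein-coding genes of at least 20 kb the share with an optimal summit inside was 38.8%.

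CG3065 lies among close neighbours on 2R (23970305 to 23972233, plus strand), and the strongest peak near any of the 9 genes was found here. That peak had signal 450 and ranks 56, 54 and 62 in the pooled list, replicate 1 and replicate 3. It lay 8248 bp downstream of the CG3065 TSS and 248 bp upstream of Sox14, which encodes an HMG box factor that acts in the ecdysone response. The optimal peak 2494 bp upstream of CG3065 lay 66 bp upstream of CG34213 and had signal 164 and ranks 638, 990 and 363. The optimal peak 12839 bp upstream lay 61 bp upstream of CG16787, with signal 123 and ranks 1121, 941 and 1674. At the CG3065 promoter the pooled list held summits 205 and 5 bp upstream of the TSS, at ranks 3925 and 7190. The stronger was nearer to the TSS of CG10904, at 27 bp, which starts 232 bp away from that of CG3065.

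CG42741 (23011078 to 23042943 on 2R, minus strand) had no optimal summit within 20 kb. Its TSS lies in an intron of twi, the mesoderm determinant gene. The pooled list held 12 summits around it, of which 2 overlapped a peak of both replicates. The strongest, at 19701 bp upstream, lay 51 bp upstream of DCTN3-p24 and had ranks 3904, 4153 and 3321 in the pooled list, replicate 1 and replicate 3. The promoter summit, 146 bp upstream, had signal 39.4 and lay in a window with a GC content of 54.2% that held a KLF/SP site.

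All 9 genes had a pooled summit within 20 kb, as did 95.3% of all protein-coding genes. Counted over the 9 genes, 15 optimal summits lay within 20 kb, spread over 7 genes, against 71.5% of all protein-coding genes with at least 1. Of these 15, 8 lay within 1000 bp of a TSS, and in each case that TSS belonged to a neighbour, namely mask, cav, lncRNA:CR42657, nej, CG9776, Sox14, CG34213 or CG16787. The share of 53.3% compares with 68.5% of all 3350 optimal summits. A member of the family was the gene with the nearest TSS at 2 of the 15, the intronic summits 3730 bp into luna and 12400 bp into dar1. The remaining summits were nearest to CG15472, CG43188, CG10357 and CG43098. For comparison cbt, a further KLF gene, had 9 optimal summits within 20 kb. Some of these were nearest to the TSS of CG4297 or lncRNA:CR46258 and not to that of cbt. The strongest ranked 3 in the pooled list and lay in an intron of ush, 1370 bp upstream of cbt, whose TSS was the nearest. In all, 7.86 pooled summits per 10 kb surrounded cbt.

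The 15 optimal peaks near these genes were all overlapped by a peak of each replicate with a summit within 100 bp. Of all optimal peaks 99.9% were overlapped in both replicates, counted without the limit of 100 bp on summits. Of the 15, 12 were among the 3350 strongest of both replicates, a share not worked out over all optimal peaks. The exceptions were the luna summit at 3730 bp and the dar1 summits at 12400 and 39170 bp. The optimal set was chosen for reproducibility from the same lists, which builds in part of this agreement. Of the 127 pooled summits near the 9 genes, 68 (53.5%) were overlapped in both replicates, against 61.8% of all pooled peaks. Nothing in the labels tells how the 2 replicates were collected apart, so differences between them may be partly technical.

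**Figure D4:**
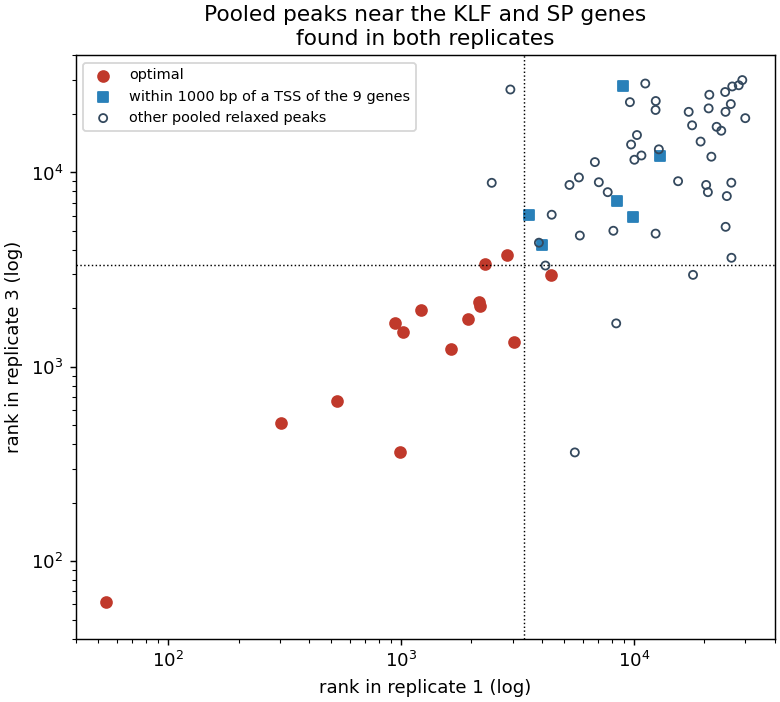
Rank in replicate 1 against rank in replicate 3 (both log axes) for the 68 pooled peaks within 20 kb of the 9 genes that both replicates contain, each matched to the overlapping peak with the closest summit. Red points are optimal, blue squares lie within 1000 bp of a TSS of the 9 genes, and dotted lines mark rank 3350. The 12 peaks in the lower left corner are optimal, and the blue squares lie beyond both lines.

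The KLF/SP site was found in 0 of the 15 optimal windows of 201 bp, against 3.79% of all optimal windows, and in 6 of 127 pooled windows (4.72%), against 6.79% of all pooled windows. In windows of 401 bp these shares were no longer below those of all peaks, at 13.3% (2 of 15) against 9.70% for optimal windows and 14.2% (18 of 127) against 14.0% for pooled windows. These 6 windows had low pooled ranks, between 7446 and 29579. The strongest was that of the CG42741 promoter, and the others lay upstream of dar1 (8095 bp), Spps (5297 bp), hkb (14373 bp) and CG3065 (15589 and 5014 bp). In the 200 bases before the 10 TSSs of the 9 genes the site did not occur, while it occurred before 5.08% of all 19630 TSSs of protein-coding genes. The DREF site was in 2 of the 15 optimal windows (13.3%), those upstream of CG9776 and CG34213, against 5.01% of all optimal windows. It was in 5 of 127 pooled windows (3.94%), against 2.48% of all, and before none of the 10 TSSs, against 6.14% of all. GAGAGAG was in 0 of the 15 optimal windows, against 3.64%, and in 6 of 127 pooled windows (4.72%), against 3.81%. It occurred before the TSSs of btd and luna, against 6.16% of all. The GC content of the windows around the best promoter summits was 60.2% for dar1, 57.7% for btd and for hkb, 54.2% for CG42741, 43.8% for Spps, 43.3% for luna and 32.3% for CG3065. The first 4 of these genes were thus well above the median of all pooled windows, 38.8%, and CG3065 was below it. A match is only a run of letters, and its absence says nothing on binding by a factor.

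Genes that work with Klf15, Spps, btd, hkb, Sp1 or dar1 were looked at in the same way. No such list was made for luna, CG3065 and CG42741. Of the listed genes, 13 of 39 had an optimal summit at a TSS, or 33.3% beside the 20.4% of all protein-coding genes. In the pooled list 34 of the 39 had one, or 87.2% beside 62.4% of all protein-coding genes. These were 10 of 10 Polycomb response element genes, 8 of 11 head gap and terminal genes, 6 of 6 appendage genes, 5 of 7 nephrocyte genes and 5 of 5 dendrite genes. A gene with several annotated TSSs can be counted through any of them, and the shares were not matched for numbers of TSSs. The optimal summits of the 13 genes lay from 78 bp (psq) to 899 bp (tsl) from the TSS, with Adf1 at 829 bp. Whether a neighbour's TSS was nearer to them was not looked at. The lists were also chosen with earlier results of these data known. An optimal summit at a TSS was found for 4 of 10 genes of proteins that bind Polycomb response elements, as Spps does. These were Adf1 (pooled rank 106), Dsp1 (345), Trl (535) and psq (2268). An optimal summit was also found for 4 of 11 head gap and terminal genes that act with btd and hkb. They were the corepressor gene gro (150), cnc (998), cic (1235) and tsl (1263). The patterning genes tll and tor had no summit at a TSS in any of the relaxed lists. Of the appendage genes that act with Sp1 and btd, Dll (1359) and dac (2963) of 6 had an optimal summit at a TSS. Of the nephrocyte genes it was 2 of 7, pyd (1239), which encodes a junction protein, and mgl (1811), which encodes an endocytic receptor. The receptor gene Cubn and the factor gene Hand, both of nephrocytes, had no summit at a TSS in any of the relaxed lists. Of the 5 dendrite genes set beside dar1, spas (2664) alone had an optimal summit at a TSS.

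Peak lists of other tagged factors and of untagged embryos were not analysed here, so sites of Bteb2-eGFP could not be told apart from regions that such precipitations recover in general. The neighbours named above share their peaks with these genes by distance alone, and which gene a peak acts on was not measured.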

How the data were processed

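Chromatin immunoprecipitation with sequencing was done on 2 libraries of 1 group. The deposited peak lists on dm6 were used, with no header and columns in narrowPeak order. The signal of a peak (column 7) is the value the authors' peak caller gave and served only to rank the peaks of a list. The −log10 q-value (column 9) is also as deposited. Per the notes deposited beside the files, the relaxed lists were made from the alignments together with 1 other file, the same for both replicates, and the optimal set by irreproducible discovery rate. Aligner, caller, filters and threshold: not given in the sources used here. Lists on dm3 were not used.

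Coordinates are 1-based. Genes and TSSs are those of Ensembl release 115, without transposable elements, and sequences are those of the RefSeq Release 6 assembly, whose chromosome lengths hold all dm6 peaks. Summits are column 2 plus column 10. Windows reached 100 bp to each side of a summit, and overlaps needed 1 bp. Printed stretches were cut to the longest part without an annotated exon. Distances are to the nearest TSS of the gene, also inside luna. Shares are over 13968 protein-coding genes, and no test was run, since there is 1 group. The summit counting was checked on placed summits (random seed 20). Python 3.11.15, NumPy 2.4.6, pandas 2.3.3 and matplotlib 3.10.9 were used.

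The genes, the related gene lists and the sites were chosen with earlier results of these data known. Named genes were the 9 genes and cbt, the gene with the TSS nearest to each optimal summit within 20 kb or to the gene itself, the 3 genes most like the one with the strongest promoter summit, and the related genes with an optimal summit at a TSS. DCTN3-p24, tll, tor, Cubn and Hand were named after their values were seen. All 39 related symbols matched, spas by a synonym.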

Additional observations from a re-analysis of the deposited data

How the results depend on the processing

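The count of 0 of 9 genes with an optimal summit at a TSS was the same in all 8 alternatives tried. These were TSS distances of 250, 500 and 2000 bp, the 5′ end of the gene alone and any base of the peak. The others were the stronger part of the list above its median and each replicate alone. For a replicate alone, its 3350 strongest peaks stood in for the optimal set, which was not made again. Shorter distances, the 5′ end alone and the stronger part of the list can only lower a count, so they could not change 0. The optimal summit closest to a TSS of the 9 genes lay 2494 bp away, at CG3065, so 2000 bp could not raise the count either. The optimal peaks near these genes also ended too far from the TSSs for any base to count. Only the lists of each replicate alone could have raised it. The 7 genes with a pooled summit at a TSS became 4 at 250 bp, where luna, btd and hkb dropped out, and 6 to 7 under the other alternatives. Optimal summits in the gene body, found in 2 genes, were found in 1 with the stronger part of the list above its median and in 1 to 2 when a replicate was left out, since with replicate 3 alone the dar1 peak, at rank 3369, was outside the strongest 3350. Optimal summits within 20 kb, found for 7 genes, were found for 5 to 8. Without replicate 1 the additional gene was CG42741, through the peak at DCTN3-p24. That peak had rank 3321 in replicate 3 but 3904 in the pooled list, outside the optimal set. With 200 bp to each side the KLF/SP site was in 2 optimal windows near the genes (13.3%, against 9.70% of all) and 18 pooled windows (14.2%, against 14.0%). With 50 bp to each side it was in 0 (against 1.49%) and 2 (1.57%, against 3.48%).

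When a replicate was left out, the best promoter rank was 3531 to 6022 for Spps, 4017 to 4212 for CG3065, 7109 to 8430 for dar1, 5873 to 9872 for btd and 12216 to 12863 for luna. For CG42741 it was 5720 without replicate 3 and for hkb 18992 without replicate 1, and the other replicate gave no summit there. In place of the nearest optimal summit, the nearest of the 3350 strongest summits of the remaining replicate was taken. Its distance was 9062 to 9167 bp for Klf15, 3709 to 11458 bp for luna and 8906 to 8940 bp for dar1. For Spps it was 3547 to 3567 bp, for Sp1 41901 to 41948 bp and for btd 6439 to 6486 bp. The distance was 12485 to 12529 bp for hkb, 2484 to 2496 bp for CG3065 and 19742 to 21384 bp for CG42741. No paired analysis was possible because there is 1 group. A missing peak is one not detected at a depth that is unknown.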
